A study of Mus musculus with 20 samples.

Results

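The NEDD4 family of ubiquitin ligases has 9 members in the mouse, Wwp2, Wwp1, Itch, Nedd4, Nedd4l, Smurf1, Smurf2, Hecw1 and Hecw2. They were taken by name, and all 9 were found among the 51826 genes of the count table and among the 20407 genes tested. The libraries were made from poly-A RNA of primary renal myofibroblasts, grown out of minced kidney tissue from C57BL/6J mice. The 4 groups of 5 libraries are untreated WT, WT with TGFβ1, untreated WWP2-/- and WWP2-/- with TGFβ1, where WWP2-/- marks homozygous knockout mice, called KO or HO in the labels. WT and WWP2-/- mice were littermates from heterozygous parents, and the labels give neither the sex of the animals nor the dose of TGFβ1. The dose and the duration of TGFβ1 are stated in the paper. The library totals ran from 47520759 to 73063697 counts (median 55863325).

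A ubiquitin ligase of this family carries a C2 domain that binds membranes, WW domains that bind proline-rich motifs of the target, and a HECT domain that takes ubiquitin from an E2 enzyme and passes it to the target. SMURF1 and SMURF2 bind SMADs and, brought to the receptor by SMAD7, mark the TGFβ receptor for breakdown. NEDD4L removes the epithelial sodium channel from the surface of kidney tubule cells and also marks activated SMAD2 and SMAD3. WWP2 is made as a full-length protein and as shorter forms, which keep the N-terminal or the C-terminal part and act on different SMADs. The comparisons ask how much Wwp2 transcript is left in WWP2-/- cells and whether its relatives change with it.

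Wwp2 (ENSMUSG00000031930) lies on the plus strand of chromosome 8, from base 107436365 to 107558595 of GRCm38. GENCODE M21 lists 11 transcripts, of which Wwp2-201 has 24 exons and 4314 bases. The short coding transcript Wwp2-205 starts 108.647 kb into the gene, and 26.4% of the 8871 merged exon bases lie before that start. The counts are per gene, so reads from a full-length and from a short transcript were added together and the isoforms could not be separated.

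**Figure D1:**
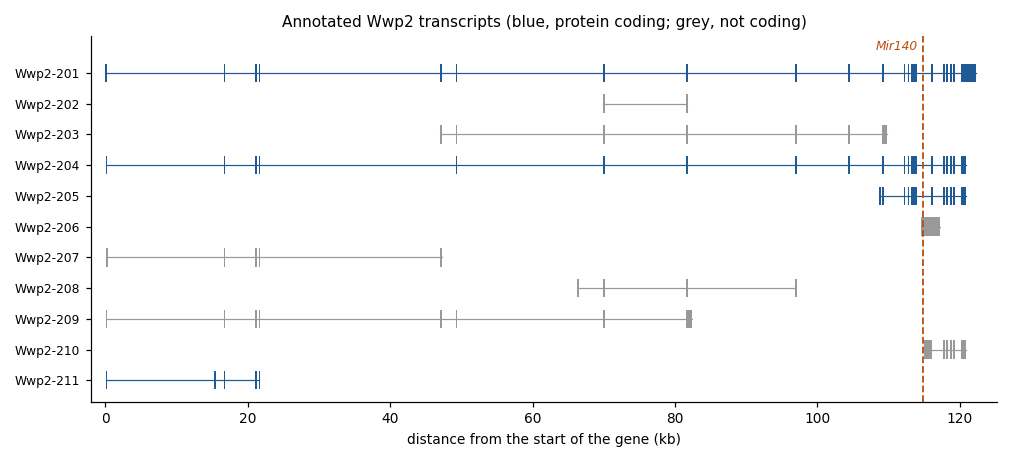
The 11 annotated Wwp2 transcripts, with exons as boxes along the distance from the start of the gene in kb. Wwp2-201 spans the gene, Wwp2-205 starts 108.647 kb from its beginning, and the dashed line marks Mir140.

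The 250 bases before the RefSeq start of Wwp2 (GRCm38.p6, chr8:107436120-107436369, plus strand) are shown because the transcript left in WWP2-/- cells is counted on this gene. Capitals mark CANNTG, the E-box bound by basic helix-loop-helix factors such as TWIST1, and CAGAC or GTCTG, the box bound by SMADs.
Wwp2: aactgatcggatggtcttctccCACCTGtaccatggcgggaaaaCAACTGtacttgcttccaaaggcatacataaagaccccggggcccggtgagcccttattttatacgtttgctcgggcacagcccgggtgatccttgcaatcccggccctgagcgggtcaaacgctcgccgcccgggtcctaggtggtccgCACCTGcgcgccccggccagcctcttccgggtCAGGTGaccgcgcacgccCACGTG
The window holds 5 matches to CANNTG and 0 to the SMAD box. Of 32807 RefSeq windows of this length, 66.2% held at least 1 CANNTG and 42.2% at least 1 SMAD box on either strand. These matches describe letters, not binding.

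Intron 16 of Wwp2-201 also holds Mir140, the gene of a microRNA known from cartilage. The mature 3′ arm, at chr8:107551288-107551308 on the plus strand, is shown with its seed, bases 2 to 8, in capitals.
mmu-miR-140-3p: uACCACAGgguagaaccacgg
Mir140 (ENSMUSG00000065439) had 0 counts in all 20 libraries. Taken alone, a count of 0 allows up to 3 counts, or 0.0631 CPM at the lowest library total. In GENCODE M21 Mir140 shares 70 exon bases with Wwp2, in the transcript Wwp2-206. How reads on both genes were counted is not given, so the 0 sets no upper limit on Mir140. Poly-A libraries also do not measure mature microRNAs.

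Residual Wwp2 was measured as CPM, the counts of a gene scaled to the same total in each library. In untreated WT cells the 5 libraries held 51.0, 55.2, 55.7, 55.9 and 48.2 CPM of Wwp2. In untreated WWP2-/- cells they held 19.5, 24.0, 23.2, 20.96 and 19.9 CPM. The WWP2-/- values were all under the WT values, and the lowest WT value was 2.01 times the highest WWP2-/- value.

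With TGFβ1, WT libraries held 48.4, 46.7, 61.6, 47.7 and 46.8 CPM of Wwp2, and WWP2-/- libraries 20.5, 21.1, 15.5, 18.8 and 21.5 CPM. The groups again did not overlap, and WT replicate 3 stood above the other 4 WT libraries. The fitted log2 fold change of Wwp2 between WWP2-/- and WT was -1.37 (SE 0.084, 95% CI -1.55 to -1.20; edgeR, adjusted P = 4.32e-08) in untreated cells. It was -1.49 (SE 0.084, 95% CI -1.67 to -1.32; edgeR, adjusted P = 1.05e-08) with TGFβ1. An exact two-sided permutation test of mean CPM gave P = 0.00794 in each case, the smallest that 5 libraries against 5 allow.

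WWP2-/- libraries kept 40.4% ± 3.74 (SD, n = 5) of the mean Wwp2 CPM of WT untreated, and 38.7% ± 4.92 (SD, n = 5) with TGFβ1. Single libraries ranged from 36.7% to 45.1% untreated and from 30.8% to 42.8% with TGFβ1. Between 844 and 1481 counts per WWP2-/- library stood behind these values, against 2521 to 3380 in WT. The gene therefore stayed measured in every WWP2-/- library, and which exons these counts came from was not analysed here. By Western blot, the authors report the full-length and N-terminal isoforms as absent from cultured WWP2-/- cells. That is a measure of protein, and the counts here are of transcript.

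TGFβ1 did not pass the test for Wwp2 in either genotype. The log2 fold change was 0.011 in WT (SE 0.083, 95% CI -0.16 to 0.18; edgeR, adjusted P = 0.993) and -0.11 in WWP2-/- cells (SE 0.083, 95% CI -0.28 to 0.063; edgeR, adjusted P = 1). The sign in WT turned to -0.083 with scaling by total count alone. The interaction of genotype and TGFβ1 on Wwp2 was -0.12 (SE 0.12; edgeR, adjusted P = 0.938), so the loss did not differ detectably between the treatments.

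Of the 9 members, 2 passed the test between WWP2-/- and WT cells with TGFβ1, where 6.07% of all 20407 genes passed. Wwp2 fell and Nedd4l rose. In untreated cells 1 of 9 passed, Wwp2, against 0.725% of all genes. That share rested on 148 genes and on single libraries, since Wwp2 was the 1 gene called by edgeR when WWP2-/- replicate 1, 4 or 5 or WT replicate 3 or 5 was left out, and 744 genes were called without WT replicate 4. Since Wwp2 is the targeted gene, its fall is a check of the labels, and 1 of the other 8 members changed with TGFβ1 and 0 untreated. The median log2 fold change of the 9 was -0.085 with TGFβ1 and 0.17 untreated, and that of all genes tested was 0.050 and 0.076.

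Nedd4l (ENSMUSG00000024589, chromosome 18) was the 1 relative that passed. With TGFβ1 it was at 47.0, 36.9, 63.0, 27.6 and 39.4 CPM in WT libraries. In WWP2-/- libraries with TGFβ1 it was at 137.9, 86.3, 35.95, 148.5 and 144.4 CPM. WWP2-/- libraries 1, 2, 4 and 5 lay above every WT library, whereas replicate 3 lay within the WT range, so the groups overlapped.

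The log2 fold change of Nedd4l with TGFβ1 was 1.24 (SE 0.33, 95% CI 0.55 to 1.92; edgeR, adjusted P = 0.0335), which is 2.36-fold, and the exact permutation test gave P = 0.0397. Over 19 alternatives it stayed between 1.1 and 1.44, and the adjusted P ranged from 0.00449 to 0.0841. The call was lost when WT replicates 1, 2, 4 or 5 with TGFβ1 were left out (edgeR, adjusted P = 0.0622, 0.081, 0.08 and 0.0762), or WWP2-/- replicates 4 or 5 (edgeR, adjusted P = 0.0782 and 0.0715). It was also lost with Xist as a covariate (edgeR, adjusted P = 0.0594) and in a fit of only these 2 groups (edgeR, adjusted P = 0.0684).

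Untreated, Nedd4l was at 66.3, 68.3, 42.7, 127.8 and 47.7 CPM in WT and at 84.4, 139.8, 135.7, 68.2 and 71.1 CPM in WWP2-/- libraries. The groups overlapped, WT replicate 4 lying above 3 of the 5 WWP2-/- libraries. The log2 fold change was 0.46 (SE 0.32, 95% CI -0.22 to 1.13; edgeR, adjusted P = 0.519), and it was not called. TGFβ1 against untreated gave -0.61 in WT (95% CI -1.29 to 0.067; edgeR, adjusted P = 0.793) and 0.17 in WWP2-/- cells (95% CI -0.51 to 0.84; edgeR, adjusted P = 1). The interaction was 0.78 (SE 0.46, 95% CI -0.18 to 1.74; edgeR, adjusted P = 0.795), so a different genotype effect with TGFβ1 was not shown.

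Nedd4l is also a gene of kidney tubules. Over all 20 libraries its Spearman correlation with summed markers was 0.561 for tubular epithelium and 0.592 for macrophages. It was 0.134 for endothelium and -0.871 for fibroblasts. The summed level of 11 tubular epithelial markers was between 32.9 and 211 CPM in WT libraries with TGFβ1 and between 15.2 and 602 CPM in WWP2-/- libraries. The WWP2-/- replicates 4 and 5, where Nedd4l was highest, had 508 and 602 CPM of them, whereas replicate 1, with 137.9 CPM of Nedd4l, had 15.2 CPM, below every other library. Between 1 and 4 of the 11 were at 0 counts in each library of these groups. The 10 macrophage markers, none of them at 0, summed to between 73.4 and 482 CPM in WT libraries with TGFβ1 and between 89.2 and 3869 CPM in WWP2-/- libraries. Replicate 1 was the lowest of the latter in these markers too, at 89.2 CPM. The 10 fibroblast markers, none of them at 0, summed to between 13395 and 31737 CPM in WT and 5150 and 15120 CPM in WWP2-/- libraries, and replicate 3, lowest in Nedd4l, was the highest of the latter. The 7 endothelial markers summed to between 77.3 and 212 CPM in WT and 38.2 and 191 CPM in WWP2-/- libraries, with at most 1 at 0. The part of cell composition in the Nedd4l result was not tested, and in bulk RNA fewer cells of a type and less RNA per cell cannot be told apart.

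**Figure D2:**
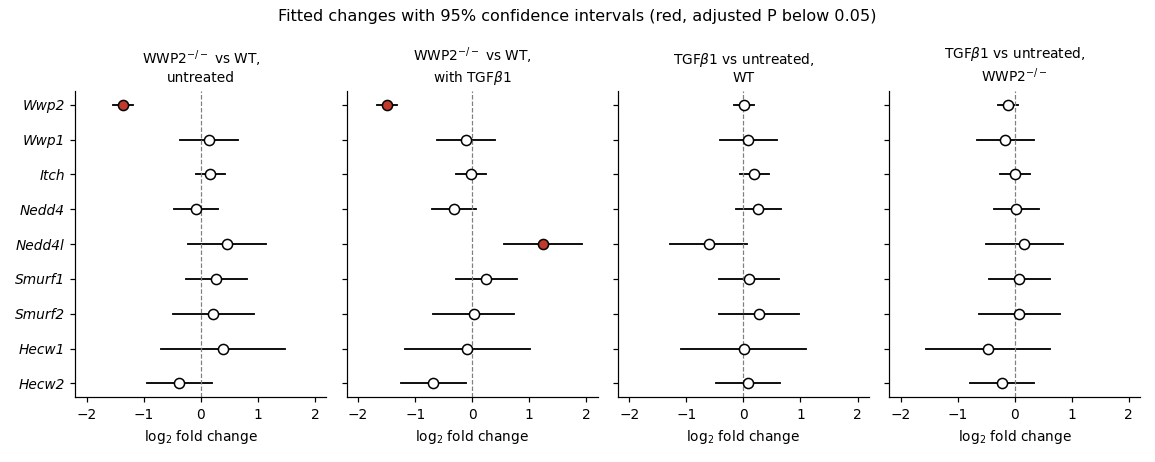
Fitted log2 fold changes of the 9 members with 95% confidence intervals in 4 comparisons, filled where the adjusted P is below 0.05. Only Wwp2, in both genotype comparisons, and Nedd4l, with TGFβ1, are filled, and the intervals of the other members in the genotype comparisons include 0 except for Hecw2 with TGFβ1.

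Hecw2, a ligase best known from neurons, was a low member that did not overlap between genotypes with TGFβ1. WT libraries held 5.70, 6.51, 6.88, 5.53 and 6.58 CPM and WWP2-/- libraries 4.40, 4.36, 4.83, 3.53 and 3.94 CPM. The exact permutation test gave P = 0.00794, but the log2 fold change of -0.68 (SE 0.27, 95% CI -1.25 to -0.11) was not called (edgeR, adjusted P = 0.13). In all, 2 of 9 members did not overlap, Wwp2 and Hecw2, against 5.53% of all genes, and untreated 1 of 9, Wwp2, against 2.82%. Since Wwp2 is the targeted gene, its separation is a check of the labels. Among its relatives only Hecw2 did not overlap, and only with TGFβ1. Untreated, Hecw2 ranged from 3.39 to 8.39 CPM in WT and from 2.83 to 7.52 CPM in WWP2-/- libraries, which overlapped (log2 fold change -0.38, 95% CI -0.94 to 0.19; edgeR, adjusted P = 0.523).

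Hecw1, its closest relative, was the lowest member, with 23 to 220 counts per library. It ranged from 0.415 to 3.43 CPM in WT cells with TGFβ1 and from 0.556 to 1.98 CPM in WWP2-/- cells with TGFβ1. Its interval was the widest in the family, -1.18 to 1.01 on the log2 scale with TGFβ1, so changes within that range remained possible. The call used adjusted P, so a larger change could also have been missed with this spread between libraries.

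The closest relatives of Wwp2 are Wwp1 and Itch, the latter known for holding back T cell activation. Untreated, Wwp1 was at 95.3, 85.6, 70.7, 88.7 and 87.3 CPM in WT and at 116, 107, 45.0, 111 and 114 CPM in WWP2-/- libraries. Replicates 1, 2, 4 and 5 of WWP2-/- cells were above every WT library and replicate 3 was below every one. The log2 fold change of Wwp1 was 0.14 (SE 0.24, 95% CI -0.36 to 0.64; edgeR, adjusted P = 0.804), and without WWP2-/- replicate 3 it was 0.32 and still not called (edgeR, adjusted P = 0.496). With TGFβ1, Wwp1 changed by -0.11 (95% CI -0.61 to 0.39; edgeR, adjusted P = 0.827), a sign that turned when replicate 1 of WWP2-/- cells was left out (0.046) and with total count scaling (0.0050).

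Over all 20 libraries the highest Itch value was 1.73 times the lowest, beside 2.87 times for Wwp1 and 3.98 times for Wwp2. The Wwp2 figure includes its fall between genotypes. Within untreated WT the SD of Itch was 11.4% of its mean, against 10.6% for Wwp1 and 6.46% for Wwp2. Itch lay between 68.7 and 91.2 CPM in untreated WT and between 89.1 and 105 CPM in untreated WWP2-/- libraries. Of the 5 WWP2-/- libraries, 3 lay above every WT library and the other 2 fell below the highest of them. The exact permutation test on CPM gave P = 0.0238, which became P = 0.0952 on TMM-adjusted CPM. The fitted change of 0.17 (SE 0.12, 95% CI -0.095 to 0.43; edgeR, adjusted P = 0.544) was not called. With TGFβ1 the change was -0.016 (95% CI -0.28 to 0.24; edgeR, adjusted P = 0.956), and its sign turned with total count scaling (0.10).

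Nedd4, which gave the family its name and acts on growth factor receptors and membrane proteins, was far the most abundant member. It ranged from 1628 to 2244 CPM in untreated WT cells and from 1563 to 2463 CPM in untreated WWP2-/- cells (log2 fold change -0.089, 95% CI -0.48 to 0.30; edgeR, adjusted P = 0.845). With TGFβ1 it ranged from 1694 to 2391 CPM in WT and from 1656 to 2254 CPM in WWP2-/- cells (-0.32, 95% CI -0.71 to 0.071; edgeR, adjusted P = 0.3). The groups overlapped in both comparisons.

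Smurf1 and Smurf2 were set apart by 2 libraries. The 250 bases before their RefSeq starts are shown because the 2 genes stood high together in the same libraries. They lie at chr5:144965831-144966080 and chr11:106920716-106920965 of GRCm38.p6, both on the minus strand, with the SMAD box in capitals as above.
Smurf1: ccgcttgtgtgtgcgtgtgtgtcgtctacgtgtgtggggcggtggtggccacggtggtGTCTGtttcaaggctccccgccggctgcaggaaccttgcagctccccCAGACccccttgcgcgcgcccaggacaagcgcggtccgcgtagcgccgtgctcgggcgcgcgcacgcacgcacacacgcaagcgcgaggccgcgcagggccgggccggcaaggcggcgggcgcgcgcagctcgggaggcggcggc
Smurf2: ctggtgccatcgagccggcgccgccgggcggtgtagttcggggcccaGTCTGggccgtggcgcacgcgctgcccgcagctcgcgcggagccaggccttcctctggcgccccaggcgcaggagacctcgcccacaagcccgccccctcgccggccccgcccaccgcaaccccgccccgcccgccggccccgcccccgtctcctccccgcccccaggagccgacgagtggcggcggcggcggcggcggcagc
The Smurf1 window holds 2 SMAD boxes and the Smurf2 window 1, and neither holds CANNTG. Both are rich in G and C, at 74.8% and 82.0%, against a median of 52.4% over all windows. GGGCGG or its complement CCGCCC, the box bound by SP1, occurs 1 time in Smurf1 and 7 times in Smurf2, and 32.7% of all windows hold it.

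WWP2-/- replicate 3, untreated, and WWP2-/- replicate 1 with TGFβ1 resembled each other more than any other library. Their log2 CPM correlated at r = 0.998 across genes, which are not independent replicates. Other pairs reached the same r, such as untreated WWP2-/- replicates 4 and 5. After the group mean of each gene was subtracted, untreated WWP2-/- replicate 3 and replicate 1 with TGFβ1 correlated at r = 0.95. The labels do not say whether these 2 libraries come from 1 culture. What set the 2 libraries apart was an r of 0.956 or less with each of the other 18. Acta2, the smooth muscle actin that marks myofibroblasts, was at 39.7 and 49.0 CPM in these 2 libraries and at 945 CPM or more in every other library. The 2 libraries were the only WWP2-/- libraries with Xist and without Y-linked transcripts.

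Untreated, Smurf1 was at 130, 116, 128, 120 and 125 CPM in WT and at 148, 126, 268, 116 and 117 CPM in WWP2-/- libraries. With TGFβ1 it was at 132, 132, 121, 102 and 131 CPM in WT and at 265, 135, 154, 110 and 127 CPM in WWP2-/- libraries. The values 268 and 265 belong to the 2 libraries that stand apart, and the other 18 ranged from 102 to 154 CPM.

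Smurf2 was at 126, 103, 129, 87.8 and 136 CPM in untreated WT and at 136, 84.9, 263, 103 and 120 CPM in untreated WWP2-/- libraries. With TGFβ1 it was at 142, 142, 140, 105 and 135 CPM in WT and at 273, 126, 152, 81.7 and 86.6 CPM in WWP2-/- libraries. Again the same 2 libraries, at 263 and 273 CPM, were above the other 18, which ranged from 81.7 to 152 CPM. Their mean was 2.11 times the median of the other libraries for Smurf1 and 2.13 times for Smurf2.

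Neither gene passed a test between genotypes. For Smurf1 the log2 fold change was 0.27 untreated (95% CI -0.27 to 0.80; edgeR, adjusted P = 0.644) and 0.25 with TGFβ1 (95% CI -0.28 to 0.78; edgeR, adjusted P = 0.586). Without the 2 libraries, an alternative chosen after seeing the data, these became -0.065 and -0.043. For Smurf2 they were 0.22 (95% CI -0.49 to 0.92; edgeR, adjusted P = 0.783) and 0.025 (95% CI -0.68 to 0.73; edgeR, adjusted P = 0.977), and without the 2 libraries -0.17 and -0.36. The direction of Smurf1 in both comparisons, and of Smurf2 untreated, rested on these libraries. That of Smurf2 with TGFβ1 was near 0 and also turned without WWP2-/- replicate 3 (-0.046) or WT replicate 4 (-0.040) with TGFβ1.

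The same 2 libraries were the lowest in Wwp1, at 45.0 and 43.6 CPM against 64.8 to 125 CPM in the other 18. Wwp2 did not set them apart, at 23.2 and 20.5 CPM within the 15.5 to 24.0 CPM of the other 8 WWP2-/- libraries. Nor did Itch or Nedd4, both of which lay within the range of the other 18.

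**Figure D3:**
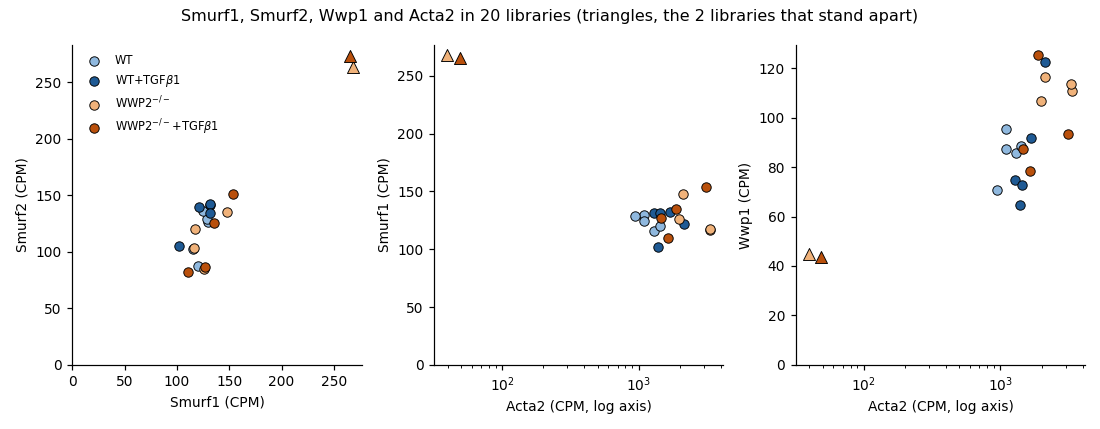
Smurf2 against Smurf1, and Smurf1 and Wwp1 against Acta2 on a log axis, in CPM for each of the 20 libraries. The triangles, WWP2-/- replicate 3 and WWP2-/- with TGFβ1 replicate 1, lie at 263 to 273 CPM of Smurf2 and below 50 CPM of Acta2, apart from the other 18.

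Levels of different members were compared as CPM per kb of merged exons. In untreated WT cells Nedd4 was at 178 ± 24.6 CPM per kb (SD, n = 5), which was 71.4% ± 2.53 of the family total. Smurf1 at 19.5 ± 0.939 and Smurf2 at 18.9 ± 3.28 CPM per kb followed, and then Wwp1 at 13.3 ± 1.40 and Itch at 8.40 ± 0.957. Wwp2 was in the sixth place at 6.00 ± 0.387 CPM per kb, Nedd4l in the seventh at 3.996 ± 1.92, and Hecw2 (0.482 ± 0.157) and Hecw1 (0.101 ± 0.0439) were last.

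In that order the ranges of Smurf1 and Smurf2, of Smurf2 and Wwp1, and of Wwp2 and Nedd4l overlapped, whereas the other neighbours were separate. In WWP2-/- cells Wwp2 stood below Nedd4l, at 2.42 ± 0.224 against 5.65 ± 1.99 CPM per kb untreated and 2.19 ± 0.279 against 6.26 ± 2.76 with TGFβ1. The untreated ranges did not overlap, and those with TGFβ1 did. Wwp2 made up 2.44% ± 0.395 of the family total in untreated WT and 0.962% ± 0.195 in untreated WWP2-/- cells. With the length of the longest transcript in place of merged exons, Itch moved above Wwp1 in all 4 groups. In WWP2-/- cells with TGFβ1, Nedd4l also moved above Wwp1, at 14.2 against 13.3 CPM per kb.

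**Figure D4:**
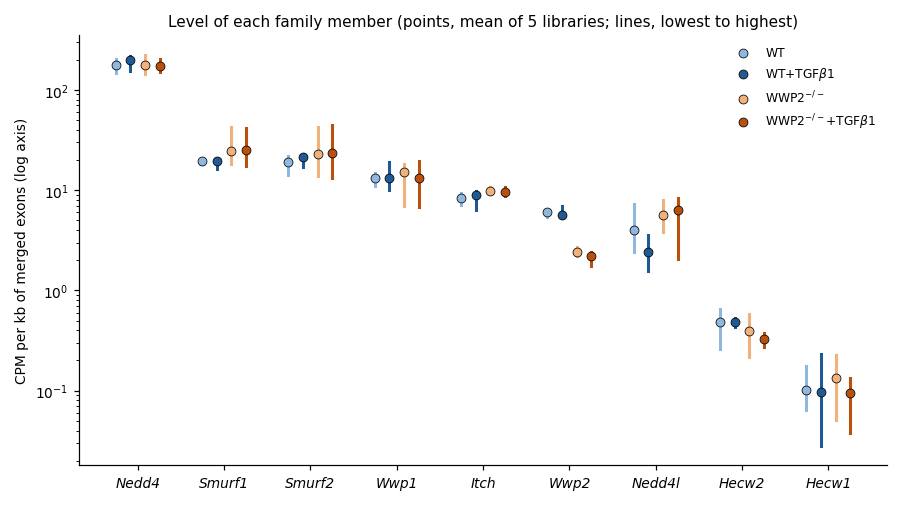
Level of each member in CPM per kb of merged exons on a log axis, with the mean of 5 libraries as a point and the lowest to highest library as a line. Nedd4 is highest in every group, and Wwp2 in WWP2-/- cells is the 1 member whose range lies clear of WT in both treatments.

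The other 8 members together were at 243 ± 26.9 CPM per kb in untreated WT and 254 ± 30.4 in untreated WWP2-/- cells, and at 266 ± 33.8 and 251 ± 34.7 CPM per kb with TGFβ1 (SD, n = 5). These differences were smaller than the SD of each group. Without Nedd4 the other 7 were at 64.6 ± 3.69 in untreated WT and 78.7 ± 17.99 CPM per kb in untreated WWP2-/- cells. The ranges, 60.3 to 69.2 and 66.1 to 110 CPM per kb, overlapped. Smurf1 and Smurf2, part of this sum, were at 42.4 and 42.7 CPM per kb in untreated WWP2-/- replicate 3, the highest of that group. With TGFβ1 the 7 were at 66.2 ± 8.75 in WT and 77.9 ± 19.8 CPM per kb in WWP2-/- cells. Those ranges overlapped too, at 51.5 to 74.3 and 60.4 to 111 CPM per kb.

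TGFβ1 against untreated called 0 of the 9 members by edgeR in WT and 0 in WWP2-/- cells, where 0% of all genes passed. At an unadjusted P below 0.05, 1397 genes passed in WT and 713 in WWP2-/- cells, and 0 members were called by DESeq2 either. Smurf2, a gene known to respond to TGFβ, changed by 0.28 in WT (95% CI -0.43 to 0.98; edgeR, adjusted P = 0.941) and by 0.084 in WWP2-/- cells (95% CI -0.62 to 0.79; edgeR, adjusted P = 1). Of 14 genes known to respond to TGFβ, such as Ccn2 and Tagln, 0 passed in either genotype, and 8 of 20 libraries were most like a library of the other treatment. The interaction called 0 members and 0 genes by edgeR, with 1424 genes at an unadjusted P below 0.05.

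The partners of the family were counted over lists. Of 13 adaptors and regulators, 1 passed with TGFβ1 between genotypes, where 6.07% of all genes passed, and 0 in any other comparison. It was Ndfip2, a membrane protein that binds the WW domains and activates these ligases. Ndfip2 was at 61.2, 54.8, 72.7, 58.6 and 56.6 CPM in WT libraries with TGFβ1 and at 95.6, 91.5, 92.9, 94.3 and 88.4 CPM in WWP2-/- libraries. Every WWP2-/- library was above every WT library, and the log2 fold change was 0.49 (SE 0.091, 95% CI 0.30 to 0.68; edgeR, adjusted P = 0.0086). The median over the 13 was 0.29, beside 0.050 over all genes.

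Of 25 reported substrates, 1 passed with TGFβ1 between genotypes, again beside 6.07% of all genes. It was Egr2, a transcription factor that Itch and Wwp2 mark. It was at 3.39 ± 2.08 CPM in WT and 11.97 ± 7.64 CPM in WWP2-/- cells (log2 fold change 1.78, SE 0.45; edgeR, adjusted P = 0.0277). The groups overlapped, at 1.71 to 6.88 CPM in WT and 4.89 to 24.8 CPM in WWP2-/- libraries. Alternative fits were examined for family members only, so the calls of Egr2 and Ndfip2 were not checked in them. Of 17 HECT ligases outside the family, such as Huwe1 and Ube3a, and of 6 E2 enzymes, 0 passed in any comparison.

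Wwp2 fell into 2 levels by genotype, so genes like it over all 20 libraries are mostly genes that differ between genotypes. By Pearson correlation of log2 CPM over these libraries among 13533 genes, the most like were Rassf2 (r = 0.884), Appl2 (0.874), Palm (0.855), Fcgrt (0.848) and Gas6 (0.847). The most opposite were Fbxo16 (r = -0.899), Slc4a8 (-0.859), Elavl1 (-0.839), Gpd2 (-0.823) and Cfl2 (-0.822). Over the 10 WT libraries alone the most like were Carns1 (r = 0.982), Ccdc74a (0.979), Mettl21a (0.965), Crocc (0.961) and Prmt2 (0.958). In these 10 libraries Wwp2 ran only from 46.7 to 61.6 CPM, and WT replicate 3 with TGFβ1 was the highest. How far these r values rest on that library was not tested. No gene was in both lists of the most like, and none of the genes named was a family member.

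The genotypes also differed in sex-linked transcripts. Of 10 WT libraries 4 held Xist only, 2 Y-linked transcripts only and 4 both, and of 10 WWP2-/- libraries the numbers were 2, 7 and 1. Among libraries with Y-linked transcripts only, Wwp2 was at 55.9 and 61.6 CPM in 2 WT and at 15.5 to 24.0 CPM in 7 WWP2-/- libraries. In the same libraries Nedd4l was at 63.0 and 127.8 CPM in WT and ranged from 35.95 to 148.5 CPM in WWP2-/- libraries, so that it overlapped. The part of sex in the Nedd4l result was not tested beyond Xist as a covariate.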

How the data were processed

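The authors mapped read pairs with STAR to the GRCm38 genome, counted them on exons with featureCounts, and deposited these counts unscaled. Versions and the strand setting are not given in the sources used here, so overlapping genes on opposite strands were not separated. All 20 columns were assigned from the sample labels. Genes that reached 5 counts in 5 or more libraries were tested with edgeR 4.0.16 (R 4.3.3) by quasi-likelihood, with TMM factors, all 20 libraries in 4 groups, and Benjamini-Hochberg adjustment at 0.05. CPM printed here are of the total count. TMM factors lay between 0.883 and 1.128, and scaling by total count alone shifts genotype changes by 0.13 with TGFβ1 and 0.063 untreated, and TGFβ1 changes by -0.10 in WT, on the log2 scale. Exact two-sided permutation tests ran over 252 arrangements. Genes most like Wwp2 were ranked on log2 CPM with a pseudocount of 2, at a mean of at least 1 CPM. Lengths and names are GENCODE M21, another release than the authors'. No 100-base stretch of 1 member occurs in another. Promoters and the microRNA are RefSeq, GRCm38.p6. Promoter windows were scanned for Wwp2, Smurf1, Smurf2, Nedd4 and Hecw2 and are shown for the first 3. The Hecw2 window held 3 SMAD boxes, and those of Nedd4 held 0.

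Named genes were the 9 members, list genes that passed a test, and the 5 most and 5 least like Wwp2. Members and lists were chosen with earlier results of these data known. Alternatives were DESeq2 1.42.0 (size factors, Wald test), a block for the replicate number, no filter or a minimum of 10 counts in each library, only the groups compared, Xist as a covariate, and each library left out. Leaving out 2 libraries together and total count scaling were added after seeing the data. The labels do not say whether libraries come from separate animals, so P measures the spread between libraries. No 2 libraries of a group were alike within sampling noise, and pairs from different groups were not checked in this way. The fit was tested on simulated data with 200 changed genes.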

Additional observations from a re-analysis of the deposited data

Results flagged for a closer look

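Of 36 groups of 5 libraries (9 members in 4 groups), 8 held 1 library far from the other 4 by Dixon's test, and chance flags about 1 in 20. In untreated WWP2-/- cells, replicate 3 was far from the others in Wwp1 (45.0 against 107 to 116 CPM), Smurf1 (268 against 116 to 148 CPM) and Smurf2 (263 against 84.9 to 136 CPM). In WWP2-/- cells with TGFβ1, replicate 1 was far from the others in Smurf1 (265 against 110 to 154 CPM). In WT cells with TGFβ1, replicate 4 was low in Itch (61.0 against 89.1 to 95.4 CPM), Nedd4 (1694 against 2234 to 2391 CPM) and Smurf2 (105 against 135 to 142 CPM). Replicate 3 of the same group was high in Wwp2 (61.6 against 46.7 to 48.4 CPM).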

How the results depend on the processing

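Of 45 results of single members (9 members in 5 comparisons, all log2), 3 were called and 42 were not. Both falls of Wwp2 were called in all 19 alternatives, between -1.54 and -1.37 with TGFβ1 and between -1.43 and -1.31 untreated. Residual Wwp2 on TMM-adjusted CPM was 38.6% untreated and 35.5% with TGFβ1. Nedd4l with TGFβ1 lost its call in 9 of 19. The number of members called with TGFβ1 was then 1 with the replicate block, with Xist as a covariate and in a fit of only the groups compared, and between 1 and 2 with each library left out. All genes called there were 1238, against 670, 779 and 569 in these 3 fits, and as few as 464 when WT replicate 2 was left out and as many as 2702 when WT replicate 3 was. Untreated they were 148, against 1 with the replicate block and in a fit of only the groups compared, 88 with Xist and 743 by DESeq2. Of the 42 results not called, 0 became called by any alternative (smallest adjusted P = 0.0641, by edgeR or DESeq2), and 21 turned sign in at least 1.

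The labels give no shared source for equal replicate numbers, and the correlations of same-numbered libraries were mixed. These correlations were of log2 CPM after the group mean of each gene was subtracted, so they are not comparable with those of plain log2 CPM. Between untreated WT and WWP2-/- libraries they ran from -0.014 to 0.452, and 4 of 5 were above 0.1 and 4 of 5 the best match, a hint from the data that the labels do not give. With TGFβ1 they ran from -0.494 to 0.159, between treatments in WWP2-/- cells from -0.238 to 0.319 and in WT from -0.528 to 0.522. Some libraries matched more closely under another number. Untreated WWP2-/- replicate 3 reached 0.95 with replicate 1 with TGFβ1, and replicate 2 reached 0.887 with replicate 5. Untreated WT replicate 4 reached 0.759 with WT replicate 3 with TGFβ1. The main fit treated all libraries as independent, and whether such pairs share a source was not tested. With the replicate number as a block, Nedd4l with TGFβ1 was 1.21 (edgeR, adjusted P = 0.0841), and of other signs only Smurf2 (-0.11) and Hecw1 (0.021) between genotypes with TGFβ1 and Hecw1 (-0.11) for TGFβ1 in WT turned. With the block within genotype Hecw1 for TGFβ1 in WT was -0.35.

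The other results that turned sign were small, none was called, and the cause was not tested. Without the 2 libraries that stand apart, Wwp1 (0.046), Smurf1 (-0.043), Smurf2 (-0.36) and Hecw1 (0.10) turned between genotypes with TGFβ1, Smurf1 (-0.065) and Smurf2 (-0.17) untreated, Nedd4 (-0.013) for TGFβ1 in WWP2-/- cells and Smurf1 (0.022) in the interaction. With total count scaling, Wwp1 (0.0050) and Itch (0.10) turned between genotypes with TGFβ1. Wwp2 (-0.083), Wwp1 (-0.0035) and Hecw1 (-0.052) turned for TGFβ1 in WT, Itch (-0.032) and Nedd4 (-0.016) for TGFβ1 in WWP2-/- cells, and Smurf1 (0.028) in the interaction. With Xist as a covariate, Itch (0.029) turned between genotypes with TGFβ1, Wwp1 (-0.17) and Hecw1 (-0.20) untreated, Hecw1 (-0.13) for TGFβ1 in WT and Smurf1 (0.093) in the interaction. With at least 10 counts in every library, Wwp2 (-0.0078) and Hecw1 (-0.0071) turned for TGFβ1 in WT and Smurf1 (0.022) in the interaction. Without a filter, Hecw1 (-0.00043) turned for TGFβ1 in WT and Smurf1 (0.0026) in the interaction, which was 0.024 with the size factors and with the Wald test of DESeq2.

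With each library left out in turn, these ranges spanned 0. Between genotypes with TGFβ1 they were -0.26 to 0.046 for Wwp1, -0.11 to 0.040 for Itch, -0.043 to 0.37 for Smurf1, -0.36 to 0.19 for Smurf2 and -0.32 to 0.44 for Hecw1. Untreated they were -0.040 to 0.35 for Smurf1 and -0.15 to 0.32 for Smurf2. For TGFβ1 in WT they were -0.022 to 0.054 for Wwp2, -0.025 to 0.14 for Wwp1, -0.53 to 0.25 for Hecw1 and -0.089 to 0.22 for Hecw2. For TGFβ1 in WWP2-/- cells they were -0.35 to 0.00043 for Wwp1, -0.046 to 0.068 for Itch, -0.085 to 0.14 for Nedd4, -0.20 to 0.39 for Smurf1 and -0.29 to 0.45 for Smurf2. In the interaction they were -0.28 to 0.29 for Smurf1, -0.56 to 0.17 for Smurf2 and -0.71 to 0.060 for Hecw1.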
